A study of Mus musculus with 12 samples.

Results

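RNA-seq libraries of the femur diaphysis, the shaft of cortical bone around the marrow cavity, were compared between mice with a conditional deletion of Dlx3 and wild-type mice. They were selected by the region and genotype given in the labels and made up 6 of the 12 libraries of the series, 3 per genotype. The wild-type libraries (WT 1, WT 2 and WT 3) came from 5-week-old males of mixed background with both Dlx3 copies intact (Dlx3+/+), and the mutant libraries (cKO 1, cKO 2 and cKO 3) from Dlx3Oc-cKO males of the same age and background. The other 6 libraries, 3 WT and 3 Dlx3Oc-cKO, came from the metaphysis, the flared end next to the growth plate, and served only for comparison. In this line the Cre recombinase is known to be driven by the osteocalcin promoter, which is active in mature osteoblasts and osteocytes, so other cells of the bone keep the gene. The titles begin with 12 different numbers, but the labels do not say in so many words that each library came from its own animal. The p-values below therefore rest on the variation among these libraries, some of it perhaps technical.

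Dlx3 belongs to the Distal-less family of homeobox transcription factors, which sit in the genome as neighbouring pairs and bind short sites with a TAAT core. It is known for its role in tooth, hair and bone, and mutations in it cause a disorder with thickened, dense bone. Osteoblasts lay down collagen matrix, and some become osteocytes, the cells buried in the mineral, which regulate mineralization and make secreted Wnt antagonists. The shaft encloses marrow, so a femur diaphysis sample mixes bone cells with blood-forming cells.

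Levels are RPKM, the number of reads per kilobase of transcript corrected for the depth of the library, summed over the transcripts of a gene symbol. A gene was tested if 3 or more of the 6 libraries reached 1 RPKM, which left 12540 genes. A fold change is the difference of mean log2(RPKM + 0.1), cKO minus WT, with the standard error (SE) of the limma fit. This scale understates the fold of genes near 0. In bulk tissue, fewer cells of a type and less RNA per cell cannot be told apart.

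The libraries of a genotype differed strongly in their make-up. WT 1 had the lowest score of the 6 on the osteoblast list, at -1.47, against 0.34 and 0.85 in WT 2 and WT 3 and -0.32, 0.39 and 0.21 in cKO 1, cKO 2 and cKO 3. A score is the mean log2 level of a list's genes minus its mean over the 6 libraries. All 23 osteoblast genes and 46 of the 48 bone matrix genes were lowest in WT 1, while 15 of the 16 megakaryocyte and platelet genes were highest there. WT 1 was also highest in 19 of 21 erythroid and 18 of 23 neutrophil genes. For B lymphoid genes this held in 5 of 22, for monocyte and macrophage genes in 7 of 21, and for all genes in 24.1%. Globin transcripts took 31.2% of the summed RPKM in WT 1, 17.1% and 14.4% in WT 2 and WT 3, and 25.4%, 14.6% and 17.9% in the 3 cKO libraries. The correlation across genes of WT 1 with the other libraries was 0.907 to 0.949, where WT 2 and cKO 2 reached 0.984, and WT 1 lay at least 2-fold below the mean of the other WT libraries in 1455 genes (11.6%) and at least 2-fold above it in 268 (2.14%). The defining markers of osteoblasts, osteocytes and osteoclasts were present in all 6 libraries, and skeletal muscle transcripts ranged from 2891 summed RPKM in cKO 3 to 10610 in cKO 1. The lowest of the 6 values was in cKO 1 for 39.5% of genes, in WT 1 for 27.8% and in WT 3 for 23.2%. Depth, read from the steps between the lowest values, was 18.4 to 53.4 M reads (M, mega) per library, the least in cKO 1, and 10 reads on a 2 kb transcript were worth 0.0936 to 0.272 RPKM.

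**Figure D1:**
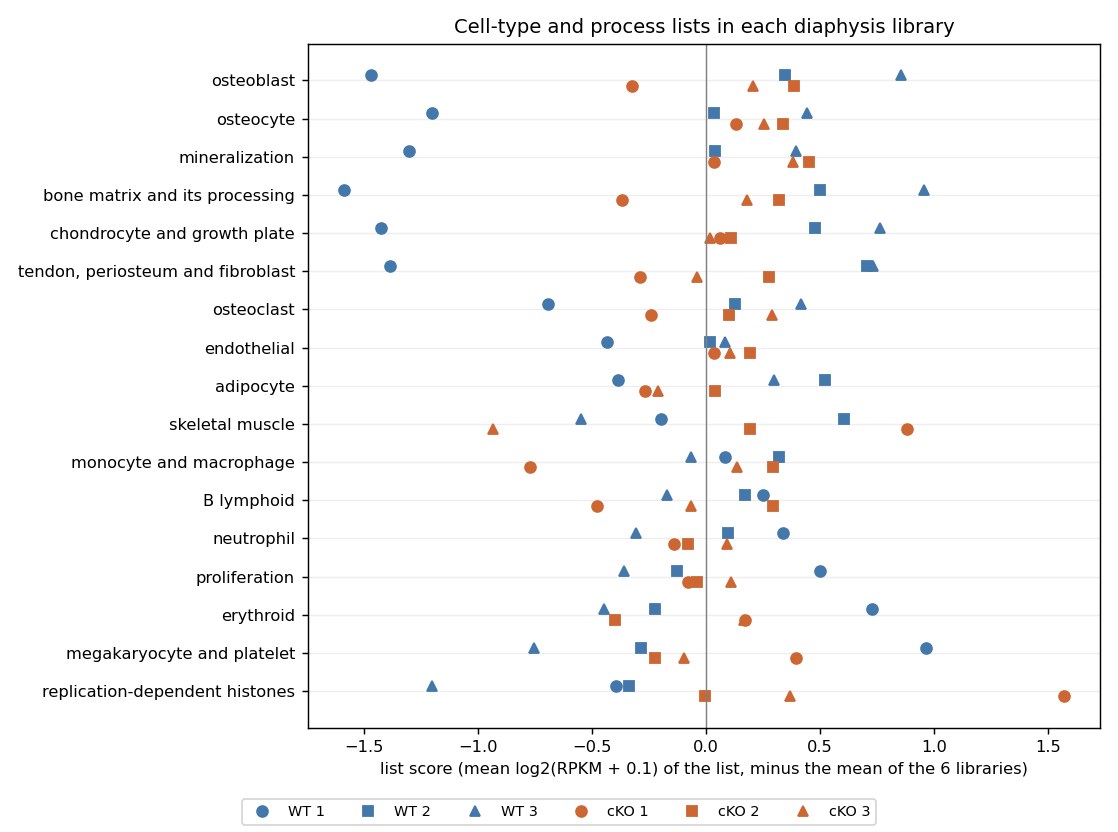
List scores (x axis, mean log2(RPKM + 0.1) of a list's tested genes minus the mean of the 6 libraries) of cell-type and process lists (y axis) in the 3 WT libraries (blue) and 3 cKO libraries (orange), 1 point per library. WT 1 sits alone at the left of the bone lists, at -1.47 for osteoblast and -1.59 for bone matrix, and at the right of the megakaryocyte list, at 0.97.

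The numbers that open the titles divide the 6 libraries at their widest gap of 144 into WT 1 (17791) with cKO 1 (17864) and a second set of cKO 2 (18008), cKO 3 (18014), WT 2 (18015) and WT 3 (18018). The labels do not say what the numbers stand for. WT 1 and cKO 1 also shared features that the second set lacked or held at lower levels. The skin keratin Krt5 had 1.33 RPKM in WT 1 and 1.71 RPKM in cKO 1, and was listed at 0 in the other 4. The mitochondrial leucyl-tRNA synthetase gene Lars2 was at 767 and 1956 RPKM in WT 1 and cKO 1, against 55.0, 66.0, 213 and 54.3 RPKM in WT 2, WT 3, cKO 2 and cKO 3. Rpph1, the RNA component of RNase P, was at 11.0 and 38.8 RPKM in WT 1 and cKO 1 and at 0.484 to 3.06 RPKM in the others. The correlation across genes did not join WT 1 and cKO 1. That of WT 1 was 0.941 with cKO 1, 0.943 with cKO 2 and 0.949 with cKO 3. That of cKO 1 was highest with WT 2, at 0.966. Results below are given over all 6 libraries, and for many genes and lists also without WT 1 or within the sets. The difference of cKO 1 from WT 1 compares single libraries and has no replicate check.

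No gene passed an adjusted p of 0.05 in the limma fit of the 6 libraries (0 of 12540, 0.0%). The smallest adjusted p was 1.00, and 86 genes (0.686%) had an unadjusted p under 0.05. With no difference between the groups, uniform p-values would give 627. Without WT 1 the count stayed at 0 with 572 genes (4.56%) at an unadjusted p under 0.05 and a smallest adjusted p of 0.0968. With the set of title numbers as a term it was also 0, with 216 genes (1.72%) and a smallest adjusted p of 0.734, and in the second set alone it was 0 with 693 genes (5.53%). The library-weighted fit called 58 genes, but its weights did not converge and WT 2 received a weight of 49.4 against 0.147 to 1.68 for the others. Because no gene passed, levels are described below by their order: for 281 genes (2.24%) every cKO value lay above every WT value, and for 99 genes (0.789%) every cKO value lay below every WT value. A gene with every WT value under 1 RPKM entered the test only through its cKO values, and the reverse, so a difference was built in. This held for 6 of the 281 genes above, Dlx4, Ihh and Emilin3 among them, and for 5 of the 99 genes below, among them Cd300ld, Snord99 and E130309D14Rik.

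Dlx3 (chromosome 11, 94981403 to 94986610, plus strand, NCBIM37) was at 3.22, 7.64 and 13.1 RPKM in WT 1, WT 2 and WT 3 and at 0.763, 1.55 and 1.17 RPKM in cKO 1, cKO 2 and cKO 3. Every cKO value lay below every WT value, and the lowest WT value was that of WT 1. The fold change was -2.52 ± 0.50 (SE; 95% interval -3.68 to -1.36; limma adjusted p = 1.00), and the exact 2-sided permutation test gave p = 0.1, the smallest that 3 against 3 libraries allow. The difference was -1.94 between cKO 1 and WT 1 and -2.80 ± 0.28 (SE) within the second set, and without WT 1 it was -3.05 ± 0.33 (SE; limma adjusted p = 0.0968). A sum over transcripts counts reads outside the deleted part as well, so the remaining level in the cKO libraries is not a measure of intact transcript.

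Dlx4, the neighbour of Dlx3 (chromosome 11, 95001770 to 95007577, minus strand, NCBIM37), was at 0.104, 0.338 and 0.299 RPKM in the WT libraries and at 1.298, 1.51 and 1.13 RPKM in the cKO libraries. The groups did not overlap, and the fold change was 2.09 ± 0.44 (SE). In the pair of WT 1 and cKO 1 the cKO value exceeded WT by 2.77, and in the second set by 1.75. With every WT value under 1 RPKM, Dlx4 entered the test only through its cKO values, so this order was built in. Its WT 1 value was also below that of 10 reads on a 2 kb transcript in that library. Dlx5, a family member known to promote osteoblast differentiation, was at 6.10, 15.3 and 25.0 RPKM in WT and at 18.8, 27.1 and 21.7 RPKM in cKO, so the groups overlapped. Its fold change of 0.74 ± 0.46 (SE) became 0.18 ± 0.25 (SE) without WT 1. Dlx6, paired with Dlx5, ran from 1.84 to 6.76 RPKM in WT and from 4.71 to 7.32 RPKM in cKO and also overlapped. Dlx6 reads cannot be told apart from those of its antisense partner Dlx6os1 because the TruSeq kit used does not mark the strand. Dlx1 and Dlx2 stayed at or below 0.116 RPKM in every library and were not tested.

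**Figure D2:**
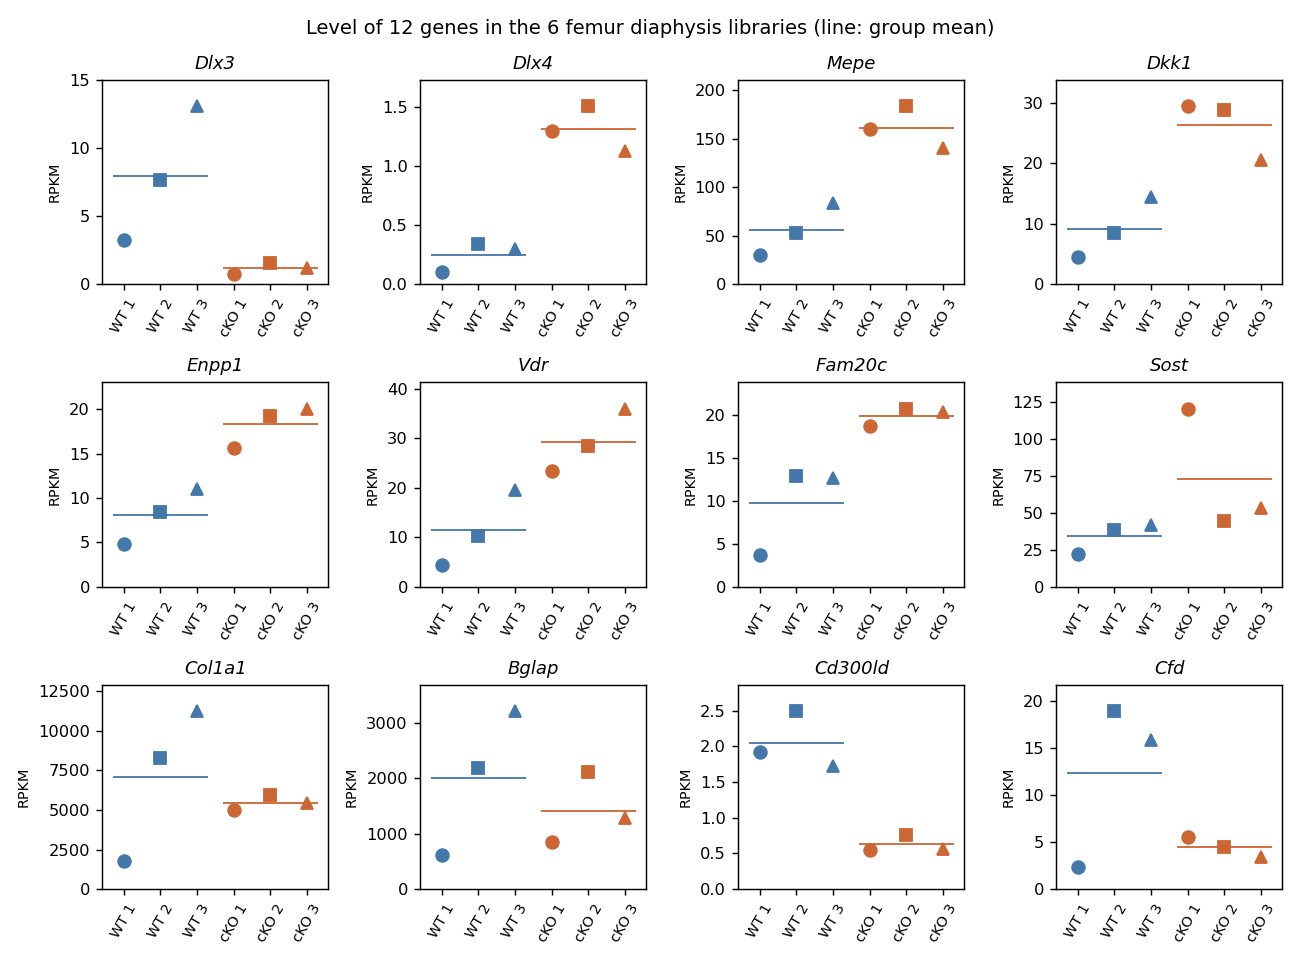
RPKM (y axes, linear, from 0) of 12 genes in each of the 6 diaphysis libraries (x axes), with lines at the group means. Dlx3 is lower and Dlx4, Mepe, Dkk1, Enpp1, Vdr, Fam20c and Sost are higher in all 3 cKO libraries than in any WT library, whereas Col1a1, Bglap and Cfd have WT 1 below and WT 2 and WT 3 above the cKO libraries.

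Genes of mineral deposition and of osteocytes stood above WT in part. Of 18 mineralization genes tested, 5 (Enpp1, Phospho1, Fam20c, Mepe and Vdr) had all 3 cKO values above the WT range and 0 had all 3 below it, against 2.24% and 0.789% of all genes. The list's median fold change was 0.60 beside 0.0022 for all genes tested, was 0.04 without WT 1, and was 1.36 between cKO 1 and WT 1 but 0.19 in the second set. Of 17 osteocyte genes, 5 (Mepe, Sost, Dkk1, Irx5 and Cadm1) lay above and 0 below, with a median of 0.42 over 6 libraries, -0.09 without WT 1, and 1.63 and 0.02 within the sets. Without WT 1, 5 osteocyte genes had every cKO value above both WT values, but 6 had every cKO value below them. For mineralization these counts were 5 and 2, against 8.71% above and 9.23% below of all genes. WT 1 was the lowest of the 6 libraries in 17 of the 18 mineralization genes and 15 of the 17 osteocyte genes.

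Mepe, Enpp1 and Dkk1 were among the genes of these lists that differed by at least 1 on the log2 scale in both sets of title numbers. The RefSeq sequences around their start sites are shown because Dlx factors are known to bind sites with a TAAT core. Each runs 5′ to 3′ from 250 bases before to 50 bases after the start in GRCm38.p6, a later build than that of the authors' values, in lower case with TAATTA in capitals. Mepe lies at chr5:104325079-104325378 on the plus strand, Enpp1 at chr10:24712110-24712409 on the minus strand and Dkk1 at chr19:30549447-30549746 on the minus strand.
Mepe: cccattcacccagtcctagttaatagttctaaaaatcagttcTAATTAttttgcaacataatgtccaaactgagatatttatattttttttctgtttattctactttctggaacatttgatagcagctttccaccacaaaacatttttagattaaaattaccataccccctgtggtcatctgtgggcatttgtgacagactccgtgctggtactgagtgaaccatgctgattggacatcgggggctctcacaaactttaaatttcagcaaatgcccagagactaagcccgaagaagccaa
Enpp1: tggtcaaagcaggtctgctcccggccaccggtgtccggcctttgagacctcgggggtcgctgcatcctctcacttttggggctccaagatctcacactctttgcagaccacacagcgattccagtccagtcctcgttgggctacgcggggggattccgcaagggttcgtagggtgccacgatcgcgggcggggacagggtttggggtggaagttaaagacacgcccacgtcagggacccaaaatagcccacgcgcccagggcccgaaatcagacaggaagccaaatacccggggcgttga
Dkk1: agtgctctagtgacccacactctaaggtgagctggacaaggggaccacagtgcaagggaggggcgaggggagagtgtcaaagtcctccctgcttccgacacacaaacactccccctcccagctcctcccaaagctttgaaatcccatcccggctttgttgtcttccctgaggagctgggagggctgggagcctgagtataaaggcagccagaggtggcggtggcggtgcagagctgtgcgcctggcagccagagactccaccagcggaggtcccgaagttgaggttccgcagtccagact
The motifs searched were TAATTG and TAATTA on both strands, the second being its own reverse complement. The Mepe window held 1 TAATTA, and neither motif was in the Enpp1 or Dkk1 window. Either motif was in 3393 of all 27025 promoters (12.6%), in 610 of 8864 promoters of tested genes (6.88%), in 12 of 173 promoters of genes above WT (6.94%) and in 8 of 65 promoters of genes below WT (12.3%). A match of letters is not a binding site, and its absence from a window says nothing about the factor.

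Mepe encodes a matrix phosphoglycoprotein of osteocytes that regulates mineralization (chromosome 5, 104754348 to 104767630, plus strand, NCBIM37). Its level was 29.8, 53.2 and 84.3 RPKM in WT 1, WT 2 and WT 3 and 159.9, 183 and 140.3 RPKM in cKO 1, cKO 2 and cKO 3. The lowest cKO library stood well above the highest WT library, and the fold change was 1.65 ± 0.35 (SE) over all libraries, 1.26 ± 0.23 (SE) without WT 1, and 2.42 and 1.26 within the sets. Enpp1, the ectoenzyme that makes pyrophosphate, an inhibitor of mineral growth, was at 4.81, 8.40 and 11.1 RPKM in WT and at 15.6, 19.3 and 20.1 RPKM in cKO. All 3 cKO values were above the highest WT value, with a fold change of 1.24 ± 0.30 (SE), 0.91 ± 0.20 (SE) without WT 1, and 1.68 and 1.02 within the sets.

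The vitamin D receptor gene Vdr was at 4.41, 10.2 and 19.5 RPKM in WT and at 23.5, 28.4 and 36.0 RPKM in cKO. Its WT values spread widely, the cKO values all lay above them, and the fold change of 1.57 ± 0.48 (SE) became 1.02 ± 0.29 (SE) without WT 1, with 2.39 and 1.17 within the sets. Fam20c, the kinase that phosphorylates secreted matrix proteins, was at 3.67, 12.9 and 12.6 RPKM in WT and at 18.7, 20.8 and 20.3 RPKM in cKO, with a fold change of 1.23 ± 0.45 (SE) that became 0.64 ± 0.16 (SE) without WT 1, and 2.32 and 0.68 within the sets. Phospho1, a phosphatase that starts mineral formation in matrix vesicles, was at 40.8, 86.6 and 76.6 RPKM in WT and at 102.1, 137.6 and 102.3 RPKM in cKO. Its fold change was 0.80 ± 0.30 (SE) and 0.47 ± 0.19 (SE) without WT 1. For all 3 genes the cKO libraries lay above WT 2 and WT 3 as well as above WT 1, by less than against all WT libraries. Dmp1, an osteocyte matrix protein, overlapped, at 65.8, 229 and 302 RPKM in WT and at 240.0, 293 and 267 RPKM in cKO, with a fold change of 0.02 ± 0.20 (SE) without WT 1. Phex, the endopeptidase gene of hereditary rickets, overlapped too, at 9.20, 31.7 and 44.3 RPKM in WT and at 32.0, 34.9 and 39.4 RPKM in cKO.

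Sost, Dkk1, Wnt10b and Tnfrsf11b, of the secreted regulators of Wnt signalling and of osteoclasts, also lay above the WT range. Dkk1, a secreted antagonist of the Wnt co-receptors, was at 4.56, 8.40 and 14.4 RPKM in WT and at 29.4, 28.8 and 20.6 RPKM in cKO. No WT library reached the lowest cKO library, and the fold change was 1.65 ± 0.39 (SE), 1.23 ± 0.26 (SE) without WT 1, and 2.66 and 1.14 within the sets. Sost, which encodes sclerostin, the osteocyte's Wnt antagonist, was at 22.4, 38.4 and 42.1 RPKM in WT and at 120.5, 44.4 and 53.5 RPKM in cKO. Here the high value was that of cKO 1, and the difference was 2.42 between cKO 1 and WT 1 but 0.28 within the second set. Wnt10b, a ligand known to promote bone formation, was at 1.33, 5.82 and 7.52 RPKM in WT and at 12.01, 10.5 and 9.23 RPKM in cKO, a fold change of 1.41 ± 0.57 (SE) that became 0.66 ± 0.20 (SE) without WT 1, and 3.08 and 0.57 within the sets. Tnfrsf11b, the gene of the osteoclast inhibitor osteoprotegerin, ran from 0.943 to 4.15 RPKM in WT and from 4.94 to 7.44 RPKM in cKO, with fold changes of 1.40 ± 0.50 (SE) and, without WT 1, 0.78 ± 0.23 (SE), and of 2.27 and 0.96 within the sets.

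The lists to which these genes belong did not share their order. Of 24 Wnt signalling genes, 2 (Wnt10b and Lgr6) lay above and 0 below, with a median of 0.09, and of 11 secreted Wnt antagonists 2 (Sost and Dkk1) lay above and 0 below, with a median of 0.12. Of 13 osteoclast regulators made by bone cells 1 (Tnfrsf11b) lay above and 0 below, with a median of 0.13, and of 31 genes of BMP and TGF-beta signalling 2 (Ltbp2 and Id3) lay above and 0 below, with a median of 0.10. Over all genes 2.24% lay above and 0.789% below. Without WT 1, every cKO value lay below both WT values in 11 of 24, 6 of 11, 3 of 13 and 10 of 31 genes of these lists (9.23% of all genes; 8.71% lay above both), with medians of -0.20, -0.42, -0.27 and -0.28. Ltbp2, a matrix protein related to the fibrillins, was at 2.71, 5.44 and 6.22 RPKM in WT and at 10.1, 8.48 and 11.9 RPKM in cKO, a fold change of 1.14 ± 0.32 (SE) that became 0.78 ± 0.20 (SE) without WT 1, and 1.86 and 0.78 within the sets. None of the 20 osteoclast genes lay outside the WT range in all cKO libraries (0 above, 0 below; median 0.06, and -0.25 without WT 1), and the collagen-degrading protease gene Ctsk ran from 164 to 985 RPKM in WT and from 432 to 720 RPKM in cKO.

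Several genes of low level separated the genotypes. Ihh, the hedgehog ligand of the growth plate, was at 0.217, 0.271 and 0.589 RPKM in WT and at 1.47, 1.154 and 1.56 RPKM in cKO, a fold change of 1.78 ± 0.42 (SE) and 1.55 ± 0.38 (SE) without WT 1. It was the only one of 14 chondrocyte genes to lie above, against 2.24% of all genes. Without WT 1 the list had 7 genes below both WT values, against 9.23% of all genes, and a median of -0.59, from 0.14. Emilin3, an extracellular matrix glycoprotein, was at 0.0963, 0.781 and 0.703 RPKM in WT and at 2.50, 1.92 and 2.13 RPKM in cKO, with the WT 1 value below that of 10 reads on a 2 kb transcript in that library. Its fold change of 2.13 ± 0.59 (SE) became 1.43 ± 0.27 (SE) without WT 1. Adamts18, a secreted metalloprotease of the ADAMTS family, was at 0.274, 0.873 and 1.13 RPKM in WT and at 2.38, 3.85 and 2.19 RPKM in cKO, a fold change of 1.88 ± 0.49 (SE) that became 1.37 ± 0.31 (SE) without WT 1, and 2.73 and 1.46 within the sets. Epcam, an epithelial adhesion molecule, was at 0.921, 1.62 and 2.09 RPKM in WT and at 3.36, 4.45 and 4.15 RPKM in cKO, a fold change of 1.37 ± 0.32 (SE) and 1.06 ± 0.23 (SE) without WT 1. For all 4 genes each cKO library exceeded each WT library, and the differences were at least 1 on the log2 scale in each set of title numbers. For Ihh and Emilin3, with every WT value under 1 RPKM, this order was built in by the filter.

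Phlda1, Angpt4 and Gfra1 had values close to each other across the WT libraries. Phlda1, a gene of the pleckstrin-homology-like family, was at 5.38, 6.94 and 6.24 RPKM in WT and at 10.1, 11.8 and 10.5 RPKM in cKO, with a fold change of 0.80 ± 0.16 (SE) and 0.70 ± 0.17 (SE) without WT 1. Angpt4, an angiopoietin, was at 2.28, 2.71 and 2.42 RPKM in WT and at 4.002, 4.53 and 4.68 RPKM in cKO, a fold change of 0.81 ± 0.18 (SE). Gfra1, a co-receptor for the growth factor GDNF, was at 4.12, 4.93 and 5.53 RPKM in WT and at 7.26, 8.42 and 9.68 RPKM in cKO, a fold change of 0.79 ± 0.19 (SE). WT 1 was the lowest WT library in these 3 genes by a small margin, and the difference within the pair of WT 1 and cKO 1 (0.89, 0.78 and 0.80) was close to that within the second set (0.75, 0.82 and 0.78). Of 24 endothelial genes, 4 (Tie1, Sox17, Sox18 and Podxl) lay above and 0 below, against 2.24% and 0.789% of all genes. The list's median was 0.22, fell to 0.04 without WT 1, and was 0.46 in the pair and 0.08 in the second set. Sox17, an endothelial transcription factor, was at 0.885, 1.47 and 1.42 RPKM in WT and at 2.15, 1.68 and 1.83 RPKM in cKO, and 20 of the 24 endothelial genes were lowest in WT 1.

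Genes below WT were fewer and included genes of immune cells. Cd300ld, a receptor of myeloid cells (chromosome 11, 114843588 to 114851236, minus strand, NCBIM37), was at 1.92, 2.49 and 1.72 RPKM in WT and at 0.555, 0.760 and 0.565 RPKM in cKO. The WT libraries, WT 1 included, were close to each other and all above the cKO libraries, and the fold change was -1.56 ± 0.30 (SE), -1.59 ± 0.33 (SE) without WT 1, and -1.63 and -1.52 within the sets. With every cKO value under 1 RPKM it entered the test only through its WT values, so its difference was built in and has no test here. Serping1, the complement C1 inhibitor, was at 47.7, 52.3 and 87.7 RPKM in WT and at 18.5, 41.7 and 26.5 RPKM in cKO, a fold change of -1.14 ± 0.34 (SE) and -1.30 ± 0.34 (SE) without WT 1. Igj, the joining chain of secreted antibodies, was at 25.1, 23.6 and 12.7 RPKM in WT and at 4.94, 12.8 and 4.38 RPKM in cKO, and overlapped by the value of cKO 2 alone, with a fold change of -1.57 ± 0.44 (SE).

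Smaller differences in the same direction were found in Thbs1, Gimap3 and Adh1. Thbs1, the matrix glycoprotein thrombospondin carried by platelets, was at 112, 110.5 and 135 RPKM in WT and at 67.5, 99.5 and 84.5 RPKM in cKO. Of 48 matrix genes it was the only one with every cKO value below every WT value, against 0.789% of all genes. Gimap3, a GTPase of lymphocytes, was at 6.38, 6.74 and 4.76 RPKM in WT and at 2.56, 4.30 and 3.52 RPKM in cKO. Adh1, an alcohol dehydrogenase, was at 4.41, 4.85 and 4.26 RPKM in WT and at 3.14, 3.15 and 3.05 RPKM in cKO. The scores of the monocyte and macrophage list were lowest in cKO 1 (-0.77) and 0.29 and 0.14 in cKO 2 and cKO 3, against 0.08, 0.32 and -0.07 in WT, and 1 of its 21 genes (Cd163) lay below in every cKO library. In the B lymphoid and neutrophil lists 1 gene each lay below (Vpreb2 of 22 and Olfm4 of 23), against 0.789% of all genes for these 3 lists, and the part of cell composition in these genes was not tested.

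The fold changes of collagen matrix genes depended on WT 1. Col1a1, the main collagen chain of bone, was at 1801, 8279 and 11230 RPKM in WT 1, WT 2 and WT 3 and at 4998, 5972 and 5416 RPKM in cKO 1, cKO 2 and cKO 3. The cKO values lay between WT 1 and the other WT libraries, so the fold change was -0.017 ± 0.66 (SE) with all libraries and -0.82 ± 0.28 (SE) without WT 1. Its sign turned with the scaling as well, to 0.0049 with globin taken out and 0.089 relative to bone matrix genes. The value was 1.47 between cKO 1 and WT 1 and -0.76 in the second set. Bglap, the osteocalcin gene, whose reads may be shared with its near-identical copy Bglap2, was at 614, 2192 and 3212 RPKM in WT and at 859, 2110.0 and 1278 RPKM in cKO, with a fold change of -0.30 ± 0.63 (SE) and -1.004 ± 0.37 (SE) without WT 1.

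Lists of osteoblast, matrix and fibrous-tissue genes differed in opposite directions in the sets. All 23 osteoblast genes were higher in cKO 1 than in WT 1, with a median of 1.07, while in the second set 10 had both cKO values below both WT values and 2 above, with a median of -0.29. For the 48 bone matrix genes, 46 were higher in cKO 1 than in WT 1 (median 1.16), and in the second set 35 lay below and 1 above (median -0.49). The 22 genes of tendon, periosteum and fibroblasts had medians of 1.03 and -0.62, with 18 of them below in the second set. Over the 6 libraries 0 osteoblast genes, 1 matrix gene and 0 tendon genes left the WT range in all cKO libraries. Of all genes, 2.24% lay above and 0.789% below over the 6 libraries. In the second set, where 2 libraries were set against 2, 28.1% of all genes lay above and 10.6% below. The median of all genes was -0.13 in the pair and 0.07 in the second set. Of the genes below in the second set, 1004 were higher and 322 lower in cKO 1 than in WT 1. Of those above in the second set, 649 were higher and 2879 lower in cKO 1. Among all 12540 genes, 4952 were higher in cKO 1 than in WT 1, so the opposite directions were not particular to the bone lists.

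**Figure D3:**
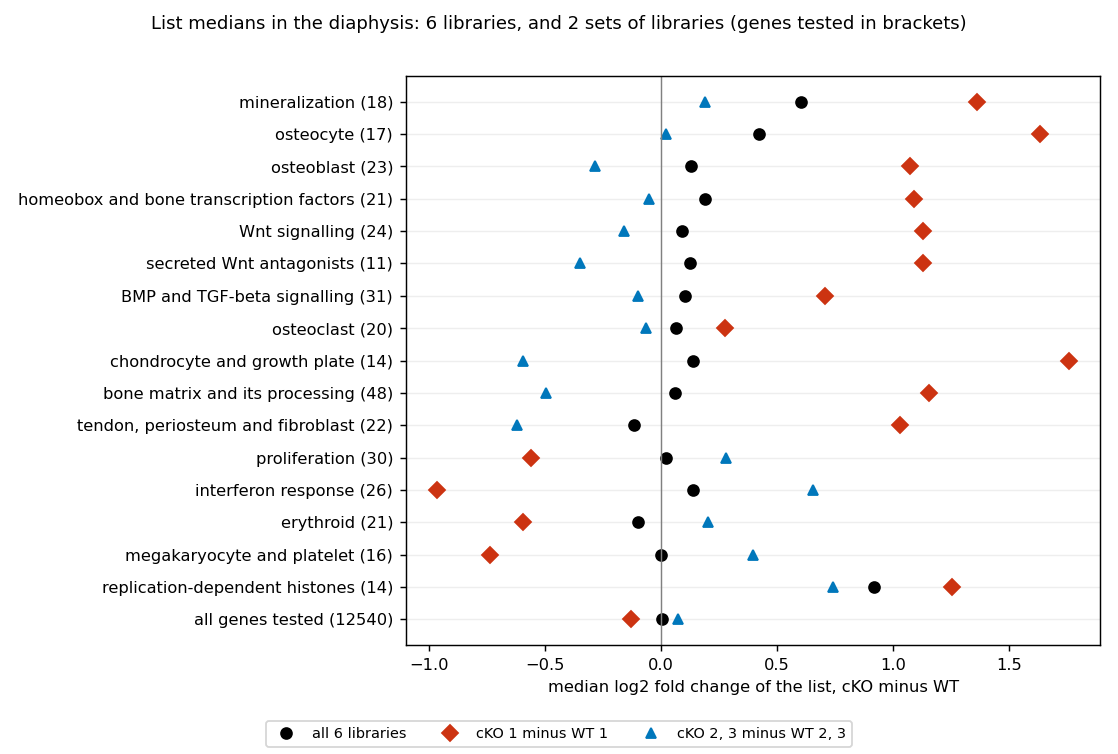
Median log2 fold change (x axis, cKO minus WT) of the tested genes of each list (y axis) over all 6 libraries (circles), between cKO 1 and WT 1 (diamonds) and between cKO 2 and 3 and WT 2 and 3 (triangles), with no error bars since these are medians over genes. The bone lists lie right of 0 in the pair and, mineralization and osteocyte aside, left of 0 in the second set, while histones lie right of 0 in both.

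Blood-cell, interferon and proliferation lists lay the other way in the pair. The 16 megakaryocyte genes had a median of -0.74 between cKO 1 and WT 1 and of 0.40 in the second set, the 21 erythroid genes -0.59 and 0.20, the 26 interferon response genes -0.96 and 0.66, and the 30 proliferation genes -0.56 and 0.28. Over the 6 libraries each of these lists had 0 genes above and 0 below, against 2.24% and 0.789% of all genes. Isg15, an interferon-induced ubiquitin-like protein, was at 22.5, 12.5 and 6.16 RPKM in WT and at 13.6, 20.9 and 18.3 RPKM in cKO, with the highest and the lowest value both in WT libraries. Pf4, the platelet chemokine, was at 455, 174 and 104 RPKM in WT and at 398, 161 and 199 RPKM in cKO, highest in the pair of WT 1 and cKO 1. The 28 skeletal muscle genes were all higher in cKO 1 than in WT 1, with a median of 0.98, and lay at -0.29 in the second set.

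Few genes differed by 2-fold or more the same way in both sets. There were 19 higher in cKO (0.152% of the genes tested) and 6 lower (0.0478%). Of the 19, 8 were replication-dependent histone genes, and 11 were others: Dlx4, Mepe, Dkk1, Enpp1, Vdr, Ihh, Emilin3, Adamts18, Epcam, Serpina3h and Rmrp. Over the 6 libraries Serpina3h, Rmrp, Hist1h2ak, Hist2h4, Hist2h2aa2, Hist1h4a and Hist1h2ah overlapped between the genotypes. In the second set Rmrp was at 0.0861 and 0 RPKM in WT 2 and WT 3 and at 1.17 and 0.134 RPKM in cKO 2 and cKO 3. The 6 lower genes were Dlx3, Cd300ld, Serping1, Igj, the small nucleolar RNA gene Snord99 and E130309D14Rik, and the direction of Cd300ld, Snord99 and E130309D14Rik was built in by the filter, as was that of Dlx4, Ihh and Emilin3. These genes were picked after their values were seen and carry no test of their own.

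Replication-dependent histone genes had a list median of 0.92 over 14 genes, with 4 above (Hist1h3b, Hist1h4b, Hist1h4i and Hist2h3c1) and 0 below, against 2.24% and 0.789% of all genes. This was the highest median of the 31 lists over 6 libraries, but it fell to 0.45 without cKO 1, under that of mineralization (0.71) and osteocytes (0.55), and was also under that of mineralization without WT 2 (0.77 against 0.80) and without WT 3 (0.88 against 1.00). Hist1h4b was at 1.74, 1.08 and 0.675 RPKM in WT and at 4.78, 2.05 and 4.18 RPKM in cKO. The list score was 1.57 in cKO 1, -0.01 and 0.37 in cKO 2 and cKO 3, and -0.39, -0.34 and -1.20 in WT. These messages lack a poly(A) tail and are near-identical copies, so their values in a library of the TruSeq RNA kit are uncertain. Of 30 proliferation genes 0 lay above, and their score was -0.08 in cKO 1. Rpph1 and Lars2 were highest in cKO 1, as was the histone score, and the part of RNA quality in the histone values was not tested.

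Beside Dlx3, the genes with the smallest p without WT 1 included genes of fat, cartilage and fibrous tissue that were lower in cKO. Cfd, adipsin of fat cells, was at 2.38, 18.9 and 15.8 RPKM in WT and at 5.53, 4.50 and 3.43 RPKM in cKO. Its fold change was -1.01 ± 0.71 (SE) with all libraries, -1.95 ± 0.23 (SE; limma unadjusted p = 1.54e-05, adjusted p = 0.0968) without WT 1, and 1.18 between cKO 1 and WT 1. Comp, a cartilage and tendon matrix protein, was at 1.08, 14.2 and 9.83 RPKM in WT and at 3.92, 3.76 and 3.01 RPKM in cKO, with -0.60 ± 0.84 (SE) and -1.71 ± 0.22 (SE). Igf2, a growth factor of growing tissue, was at 8.42, 45.0 and 61.4 RPKM in WT and at 21.2, 26.7 and 22.5 RPKM in cKO, with -0.29 ± 0.66 (SE) and -1.17 ± 0.20 (SE). In these genes WT 1 lay below the cKO libraries and WT 2 and WT 3 above them. Leaving out WT 1, a library singled out by its values, therefore moved their fold changes down. Prg4, the joint lubricant lubricin, and Nov, a matricellular protein, had fold changes of -1.18 ± 0.62 (SE) and -1.005 ± 0.81 (SE) with all libraries and of -1.92 ± 0.32 (SE) and -2.03 ± 0.33 (SE) without WT 1.

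**Figure D4:**
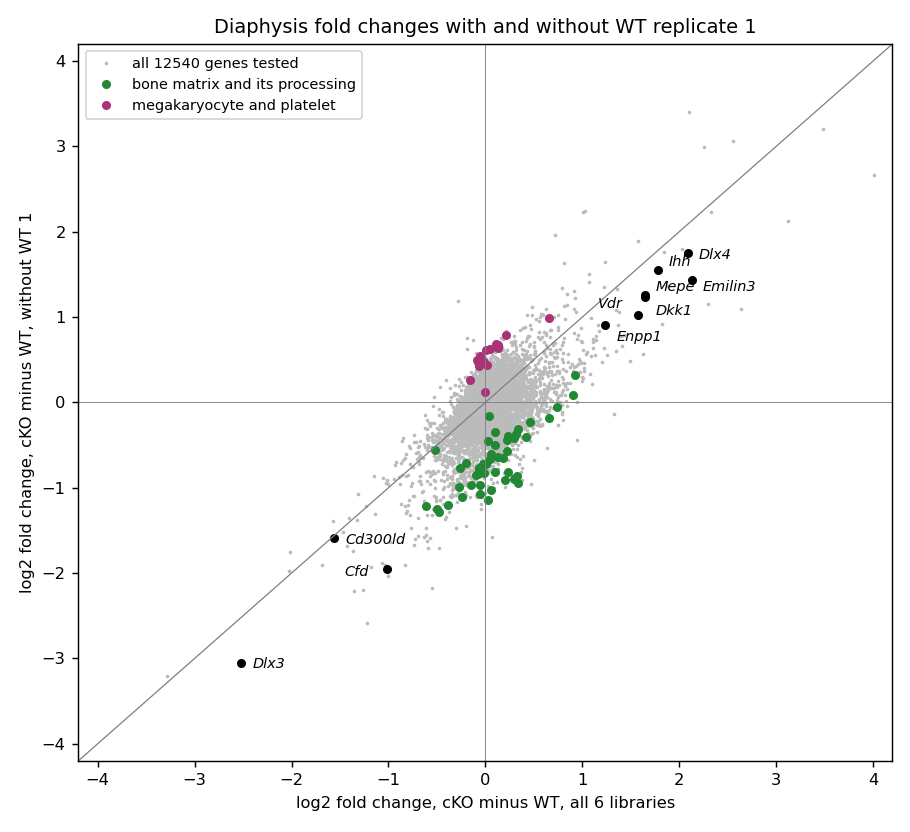
Log2 fold change (cKO minus WT) of all 12540 genes tested with the 6 libraries (x axis) and without WT 1 (y axis), 1 point per gene, with bone matrix genes in green, megakaryocyte genes in purple, named genes in black and a diagonal line of equal values. Matrix genes lie mostly below the line and megakaryocyte genes mostly above it, while Dlx3 and Mepe keep their side of 0.

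Levels were also read relative to 6 bone matrix genes (Col1a1, Col1a2, Bglap, Bglap2, Sparc and Ibsp), a scale on which the median of all genes moved by 0.11 (log2). On it 227 of all genes (1.81%) lay above and 27 (0.215%) below. Of the 181 genes of the bone lists, 47 (26.0%) lay above and 7 (3.87%) below, where the unscaled values gave 15 (8.29%) and 2 (1.1%), and 15 and 81 without WT 1. The 6 reference genes are themselves among the 181, with Bglap2 among the 7 below, so these counts are not independent of the scale. For mineralization the counts were 11 of 18 above and 0 below, and for osteocytes 8 of 17 and 1. These counts rested on WT 1: without it the scale put 82.9% of all genes above both WT libraries and 0.407% below, and the bone lists, at 110 of 181 (60.8%) above and 11 (6.08%) below, had a smaller share above than all genes. On this scale Wnt10b differed by 1.51, with WT values of -8.92, -8.82 and -9.002 and cKO values of -6.77, -7.76 and -7.67 (log2 relative level), so the 3 WT libraries were close to each other. Tnfrsf11b differed by 1.51 as well, with WT values of -9.38, -9.64 and -9.84 and cKO values of -8.04, -8.26 and -8.05. The limma fit of scaled values called 0 genes, with 31 at an unadjusted p under 0.05. The reference genes are made by the cells in which Dlx3 is deleted, so a genotype difference in them cannot be told apart from one in the genes scaled to them.

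The genotype difference was set against that of the metaphysis, where the same fit called 1441 of 12641 genes (11.4%). In 1 fit of all 12 libraries, 0 of 12321 genes (0.0%) differed between regions in their genotype difference at an adjusted p of 0.05, with 495 (4.02%) at an unadjusted p under 0.05 and a smallest adjusted p of 0.908. Mepe differed by 1.65 ± 0.35 (SE) in the diaphysis and 0.78 ± 0.32 (SE) in the metaphysis, a difference between regions of 0.87 with a 95% interval of -0.29 to 2.02. Enpp1 differed by 1.24 ± 0.30 (SE) and 1.45 ± 0.12 (SE), a difference of -0.21 with a 95% interval of -0.97 to 0.55. For Emilin3 the values were 2.13 ± 0.59 (SE) and 2.48 ± 0.17 (SE), and for Cd300ld -1.56 ± 0.30 (SE) and -1.77 ± 0.28 (SE). In both regions every WT value of Emilin3 and every cKO value of Cd300ld was under 1 RPKM. Their shared directions were therefore built in by the filter. The intervals are wide, so these tests do not show that the regions respond alike.

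Without WT 1 the comparison between regions gave another count. It called 241 of 12321 genes (1.96%), 182 (1.48%) with the diaphysis difference below that of the metaphysis and 59 (0.479%) with it above. Among those below were Acan, the cartilage proteoglycan aggrecan (-2.02 ± 0.26 SE; limma adjusted p = 0.0315), Nid2, a basement membrane protein (-1.37 ± 0.20 SE; limma adjusted p = 0.0322), Runx2, the master osteoblast transcription factor (-1.25 ± 0.22 SE; limma adjusted p = 0.0493), and Col1a1 (-1.27 ± 0.28 SE; limma adjusted p = 0.0493). In the metaphysis Runx2 was at 13.1, 13.6 and 16.2 RPKM in WT and at 29.4, 26.8 and 26.9 RPKM in cKO, groups that did not overlap. In the diaphysis it was at 7.57, 19.4 and 23.2 RPKM in WT and at 13.9, 20.7 and 17.5 RPKM in cKO, and overlapped. Of 48 bone matrix genes 12 were called below and 0 above, and of 23 osteoblast genes 3 and 0, against 1.48% and 0.479% of all genes. WT 1 was singled out by its values and was the lowest library in 46 of these matrix genes and all 23 osteoblast genes. Leaving it out raises the WT mean of such genes and lowers their diaphysis difference. The direction of these calls was therefore in part built in, and their adjusted p values carry that choice. Dlx5 differed by -1.20 ± 0.33 (SE; limma adjusted p = 0.0627) between regions without WT 1. In the second set alone, with cKO 1 left out too, the count was 0 with 3333 genes at an unadjusted p under 0.05 and a smallest adjusted p of 0.0566.

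**Figure D5:**
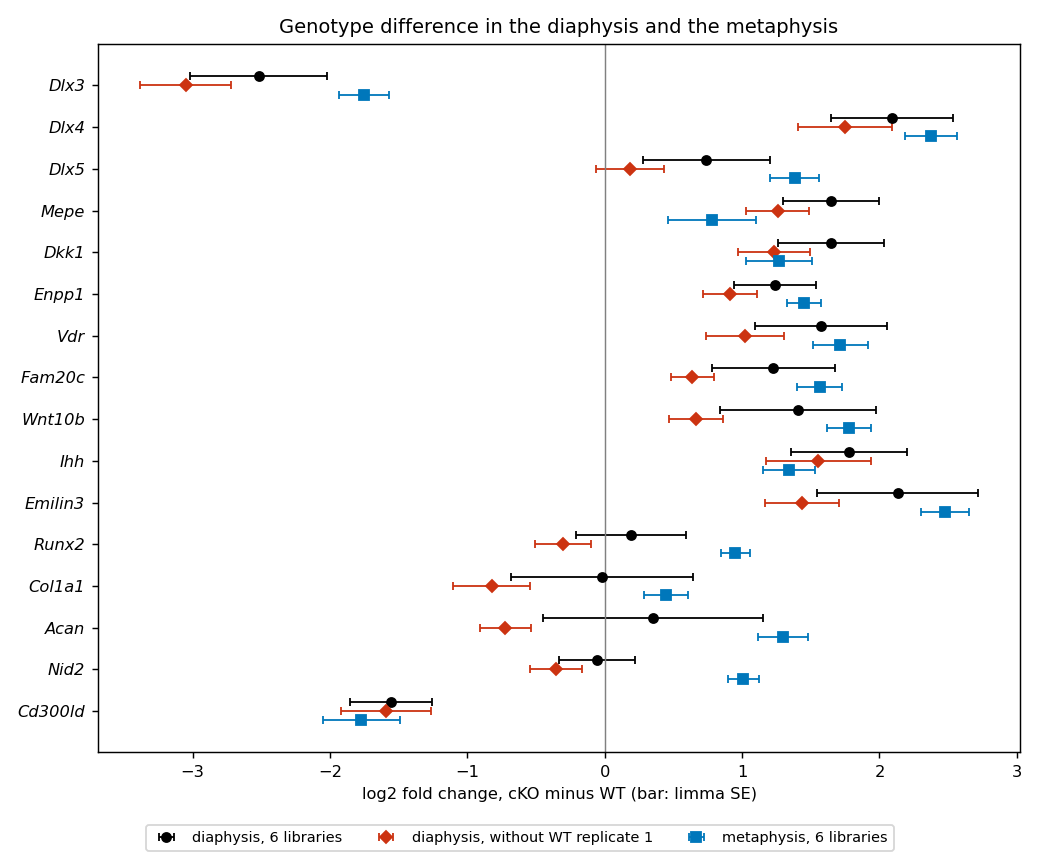
Log2 fold change (x axis, cKO minus WT, bars are limma SE) of 16 genes (y axis) in the diaphysis with 6 libraries (circles), the diaphysis without WT 1 (diamonds) and the metaphysis (squares). Mepe, Dkk1, Enpp1, Ihh and Emilin3 lie right of 0 throughout, while Runx2, Col1a1, Acan and Nid2 lie left of 0 in the diaphysis without WT 1 and right of 0 in the metaphysis. The side of Emilin3 in both regions and of Ihh in the diaphysis was built in by the filter.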

How the data were processed

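The authors deposited 1 table per region with an RPKM value per RefSeq transcript and library, per the file headers. Named in the submitters' processing notes, without their roles, are the build mm9 and the tools Partek 6.6, Bowtie 0.12.7.0, TopHat 1.3.2 and CASAVA 1.8.2, and the handling of shared reads is not given in the sources used here. RPKM corrects for length and depth but not for composition, so a library rich in globin reads lower elsewhere. The diaphysis table held 24824 transcripts of 19067 symbols.

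Transcripts were summed per symbol, genes with at least 1 RPKM in 3 of 6 libraries were kept, and log2(RPKM + 0.1) was fitted 2-sided in R 4.3.3 by limma 3.58.1, its prior spread following a mean-variance trend, with Benjamini-Hochberg adjustment over all genes tested. Groups came from the labels, and replicate numbers only name libraries. Adjusted p values are from limma, and Dlx3 also had an exact permutation test. Regions were compared by a contrast in a joint fit of 12 libraries. No count test was run: at the depth chosen in each library to bring low values near whole reads, 71.9% to 77.0% lay within 0.1. Chance gives 20% at a fixed depth, and more at a depth chosen this way. The scripts were tested on simulated data with 200 changed genes. Summaries used Python 3.11.15, pandas 2.3.3, numpy 2.4.6, scipy 1.17.1 and matplotlib 3.10.9.

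The genes and the 31 gene lists were chosen with earlier results of these data known. Named genes are the Dlx family, genes called (up to 15 per direction), the 12 per direction with the smallest p with and without WT 1, the 12 with the largest departure of WT 1 (mean of at least 5 RPKM), the 6 per direction with the smallest p between regions, the 4 with the largest fold change in each list and each list's textbook members. Any other gene was picked after its values were seen. The fits by title number, and some others, were also chosen after seeing the data. Gene positions are from GENCODE vM1 on NCBIM37, the same assembly as mm9, and start-site sequences from RefSeq on GRCm38.p6.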

Additional observations from a re-analysis of the deposited data

How the results depend on the processing

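The count of 0 genes differing by genotype was the same in every fit run, from 31 genes at an unadjusted p under 0.05 (relative to bone matrix genes) to 693 (second set alone), with 2 exceptions. The library-weighted fit called 58 genes and gave Dlx3 at -2.52 (limma adjusted p = 0.00808), and the fit with the osteoblast score as covariate called 1, Dlx3 at -2.67 (limma adjusted p = 0.0120), but the score may move with the genotype. Leaving out each library called 0 genes each time, with a Dlx3 fold change of -3.05 to -2.06. The difference between regions called 0 to 241 genes with a library left out (241 without diaphysis WT 1), 2394 with library weights and 2 with no filter. Genes not overlapping numbered 467 to 1470 above and 144 to 1158 below with a library left out, and 3528 and 1326 in the second set alone, as fewer samples are easier to order. With no filter they numbered 509 above and 286 below, and at a mean of at least 5 RPKM 181 and 34, as other numbers of genes were read. No paired analysis was possible because the labels give no replicate numbers. The set of title numbers, whose meaning the labels do not give, was entered as a term only after seeing the data.

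Single genes other than Dlx3 were traced through each fit, and each gene in each fit was counted as 1 case. In 745 cases the result stayed the same, in 13 the sign changed, and in 22 the threshold was passed, the latter all with library weights. The changes of sign were those of Col1a1, Bglap, Igf2, Comp and Runx2. Col1a1 turned to 0.0049 with globin taken out and 0.089 relative to bone matrix genes, and ran from -0.82 to 0.50 with a library left out (0.28 without WT 2, 0.50 without WT 3, 0.045 without cKO 1). Bglap ran from -1.004 to 0.19 (0.19 without WT 3, 0.011 without cKO 1), Igf2 from -1.17 to 0.26 (0.033 without WT 2, 0.26 without WT 3) and Comp from -1.71 to 0.090 (without WT 2). Runx2 was -0.080 with library weights, -0.15 in the second set alone and -0.30 to 0.50 with a library left out, the lowest without WT 1. The cause was not tested. List medians moved by less than 1 SD between libraries in all 226 alternatives run, but WT 1 itself widens that SD. Without WT 1 the median of 14 of the 31 lists changed sign, 11 of them from above 0, such as osteoblast (0.13 to -0.62) and bone matrix (0.06 to -0.75), and that of mineralization went from 0.60 to 0.04. The shallowest library, cKO 1, limits genes near 0.272 RPKM, the worth of 10 reads on a 2 kb transcript.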

Other observations

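The ratio of the adult beta-globin copies Hbb-b1 and Hbb-b2 took 2 levels that did not follow the genotype. It was 0.949 in WT 1 and 0.947 in cKO 3, and 0.292, 0.286, 0.280 and 0.288 in WT 2, WT 3, cKO 1 and cKO 2. The copies are near-identical, so the split of reads between them is uncertain, and the mixed background of the mice is given by the labels. Hbb-b1 alone had 41120.0 RPKM in WT 1 and 18780.0 RPKM in cKO 3, against 6123 to 12760.0 RPKM in the others.

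Growth plate collagens below the filter were highest in WT 2. Col9a1, a chain of the cartilage collagen, was at 0.117, 3.55 and 1.59 RPKM in the WT libraries and at 0.718, 0.331 and 0.194 RPKM in the cKO libraries, and Lect1, a cartilage-specific inhibitor of vessel growth, was at 0.106, 2.34 and 0.846 RPKM in WT and at 0.150, 0.155 and 0.0512 RPKM in cKO. Trib3, a stress-induced pseudokinase, also below the filter, was at 0.777, 0.554 and 0.499 RPKM in WT and at 0.943, 2.93 and 2.90 RPKM in cKO.

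Genes of the periosteum and fibrous tissue were among those furthest below the other WT libraries in WT 1. Periostin (Postn), a matrix protein of the periosteum, was at 36.5, 365 and 512 RPKM in WT and at 172, 269 and 292 RPKM in cKO, and the tenascin gene Tnn was at 3.49, 58.4 and 83.1 RPKM in WT and at 26.5, 44.5 and 39.6 RPKM in cKO. In both genes cKO 1 was the lowest of the cKO libraries and WT 1 the lowest of all 6.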
